A study of Mus musculus with 8 samples.

Results

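Crypt chloride secretion rests on a small set of membrane proteins, and the genes described here were Cftr, Slc12a2, Kcnq1, Kcne3, Kcnn4, Aqp4 and Aqp1. Every probe set of the deposited array table that the platform annotation ties to exactly 1 of these 7 genes was taken, which gave 13 probe sets of the 45037 that are not array controls. Slc12a2 and Aqp4 had 3 probe sets each, Cftr and Kcnn4 had 2 each, and Kcnq1, Kcne3 and Aqp1 had 1 each. The rule that took the probe sets used no measured value, but the 7 genes were chosen with earlier results of these arrays known, so counts of their calls are a description.

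The study sorted mouse intestinal crypt cells by flow cytometry, either by the amount of the receptor EphB2 on the cell surface or by green fluorescence from an EGFP reporter in the Lgr5 locus. EphB2 is a receptor tyrosine kinase of the crypt epithelium that is most abundant at the crypt base and declines towards the crypt mouth, and Lgr5 marks the crypt base columnar stem cells. The 5 groups were EphB2 High (2 arrays), EphB2 Medium (2 arrays), EphB2 Low (2 arrays), Lgr5 High (1 array) and Lgr5 Low (1 array), and all 8 arrays came from the C57BL/6 strain. Cells of the 3 EphB2 groups were labelled with an anti-EphB2 antibody, with no transgene given in the labels, and cells of both Lgr5 groups came from Lgr5-EGFP knock-in mice, in which the Lgr5 locus drives the reporter. No treatment, age or sex was given in the labels, and nothing in them says that the replicates were different mice. The p-values therefore measure only how far these arrays scatter, which may be technical. Replicates 1 and 2 of the EphB2 groups were hybridized on separate occasions, each occasion holding all 3 groups, and the Lgr5 arrays were hybridized on an occasion of their own.

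Fluid secretion in the crypt is driven by chloride. The basolateral cotransporter NKCC1, the product of Slc12a2, loads chloride into the cell together with sodium and potassium, and the apical channel CFTR lets chloride out into the lumen when cyclic AMP rises. Basolateral potassium channels, KCNQ1 with its subunit KCNE3 for the cyclic AMP response and KCNN4 for the calcium response, recycle the potassium and keep the voltage that pulls chloride out, while water follows through the tissue, in part through aquaporins. Secretion is classically assigned to the crypt and absorption to the villus or the surface epithelium.

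Positions are those of the RefSeq annotation of GRCm38.p6. Cftr lies at chr6:18170687-18322770 and Aqp1 on the same chromosome at chr6:55336299-55348555. The 3 potassium channel genes lie on chromosome 7, Kcnn4 at chr7:24369826-24385212, Kcne3 at chr7:100176507-100184869 and Kcnq1 at chr7:143106877-143427050. The exon that each probe set reads was not analysed here.

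Promoters of some members are shown because most members moved together between the sorted groups, as described below. Windows from RefSeq's promoter table are shown for 4 of the 7 genes. Kcnq1 had no window in that table, and Slc12a2 and Aqp4 were left out of the windows shown and of the match counts. The 5 windows shown are chr6:18170437-18170686 for Cftr, chr7:100176420-100176669 and chr7:100178433-100178682 for the 2 annotated starts of Kcne3, chr7:24370013-24370262 for Kcnn4 and chr6:55336049-55336298 for Aqp1. Each is the 250 bases before a start annotated in that table, on the plus strand, written 5′ to 3′. The Kcnn4 window and the downstream Kcne3 window lie inside the gene positions given above, and the upstream Kcne3 window lies partly inside. The starts shown for these genes are therefore not the first ones annotated. Capitals mark matches, on either strand, to any of 7 short motifs searched: CTTTGA (a core of TCF sites), CACGTG (an E-box), CCAAT, TGACGTCA and TGACATCA (cyclic AMP response elements), GGGCGG (a GC box) and TATAAA.
Cftr: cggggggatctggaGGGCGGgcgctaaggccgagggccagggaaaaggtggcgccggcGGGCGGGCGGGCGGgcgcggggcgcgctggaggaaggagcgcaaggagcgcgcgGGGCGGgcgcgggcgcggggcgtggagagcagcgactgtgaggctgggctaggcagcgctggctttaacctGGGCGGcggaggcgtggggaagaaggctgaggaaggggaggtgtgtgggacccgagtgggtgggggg
Kcne3, upstream start: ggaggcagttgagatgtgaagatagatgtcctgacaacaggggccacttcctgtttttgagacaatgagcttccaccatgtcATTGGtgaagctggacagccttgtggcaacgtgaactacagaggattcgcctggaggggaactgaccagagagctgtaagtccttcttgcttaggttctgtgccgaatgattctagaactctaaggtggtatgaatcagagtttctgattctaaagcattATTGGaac
Kcne3, downstream start: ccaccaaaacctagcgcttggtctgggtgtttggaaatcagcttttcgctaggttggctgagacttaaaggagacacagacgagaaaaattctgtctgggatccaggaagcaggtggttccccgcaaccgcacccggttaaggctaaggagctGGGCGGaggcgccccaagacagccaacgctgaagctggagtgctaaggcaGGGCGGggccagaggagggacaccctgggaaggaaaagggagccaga
Kcnn4: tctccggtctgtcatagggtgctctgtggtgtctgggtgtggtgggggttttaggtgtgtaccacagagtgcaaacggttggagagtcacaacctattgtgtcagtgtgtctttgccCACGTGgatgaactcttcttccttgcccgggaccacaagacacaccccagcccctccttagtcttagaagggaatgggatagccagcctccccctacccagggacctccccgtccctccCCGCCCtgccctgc
Aqp1: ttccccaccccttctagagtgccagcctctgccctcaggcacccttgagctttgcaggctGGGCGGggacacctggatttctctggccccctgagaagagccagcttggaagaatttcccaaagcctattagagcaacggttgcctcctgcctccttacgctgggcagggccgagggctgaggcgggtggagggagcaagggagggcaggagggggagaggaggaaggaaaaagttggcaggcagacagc
The Cftr window held 6 GC boxes, of which 3 overlap in a single run, and 76.4% of its bases were G or C. The window of the upstream Kcne3 start held 2 CCAAT matches, both on the minus strand and so read ATTGG above, and the window of the downstream start held 2 GC boxes. The Kcnn4 window held 1 E-box and 1 GC box (on the minus strand), and the Aqp1 window held 1 GC box. GC boxes were present in 32.7% of all 32851 windows of this length in the table, CCAAT in 33.8% and the E-box in 6.02%. TCF cores (13.8% of all windows), the 2 cyclic AMP response elements (1.55% and 2.93%) and TATAAA (12.4%) had no match in these 5 windows. A GC box was found in at least 1 window of each of the 4 genes shown, and no other motif searched was found in more than 1 of them. Nothing is said here about the promoters of Slc12a2, Aqp4 and Kcnq1, so the matches do not describe the members as a set. A match describes letters in the window and is not a measured binding site.

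Values are log2 RMA expression, on which array medians lay between 6.12 and 6.20 and the third quartile between 9.34 and 9.46, and a difference of 1 is a 2-fold change. A probe set was called where limma's Benjamini-Hochberg adjusted p, computed over all 45037 probe sets of the 6 EphB2 arrays, was under 0.05. The epithelial genes Epcam, Cdh1, Krt8, Krt18, Krt19, Vil1 and Cldn7 had array medians between 13.6 and 13.9 in all 8 arrays, and Lgr5 itself read 9.48 and 9.64 in EphB2 High, 7.70 and 8.01 in EphB2 Medium, 5.66 and 4.96 in EphB2 Low, 10.15 in Lgr5 High and 5.75 in Lgr5 Low. All 6 stem cell markers listed, of which Slc12a2 is one, were called higher in EphB2 High than in EphB2 Low, and all 7 measured enterocyte markers were called lower. In these sorted populations, fewer cells of a type and less RNA per cell cannot be told apart.

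EphB2 High cells were richer than EphB2 Low cells in the transcripts of 6 of the 7 genes: the loading cotransporter Slc12a2, the potassium channel genes Kcnq1, Kcne3 and Kcnn4, and the water channel genes Aqp4 and Aqp1. Of the 13 probe sets, 11 rose, 0 fell and 2 did not pass the test, both of them reading Cftr. Over the whole array 15.4% of probe sets were called higher, 11.9% lower and 27.4% in either direction. The median difference of the 13 probe sets was 1.80, against -0.01 over all 45037. With a single probe set per gene, the brightest, 6 of the 7 genes were called higher, beside 19.6% of 18193 genes. The arrays of the 2 groups did not overlap in any of the 13 probe sets, which was also so in 62.9% of all probe sets.

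**Figure D1:**
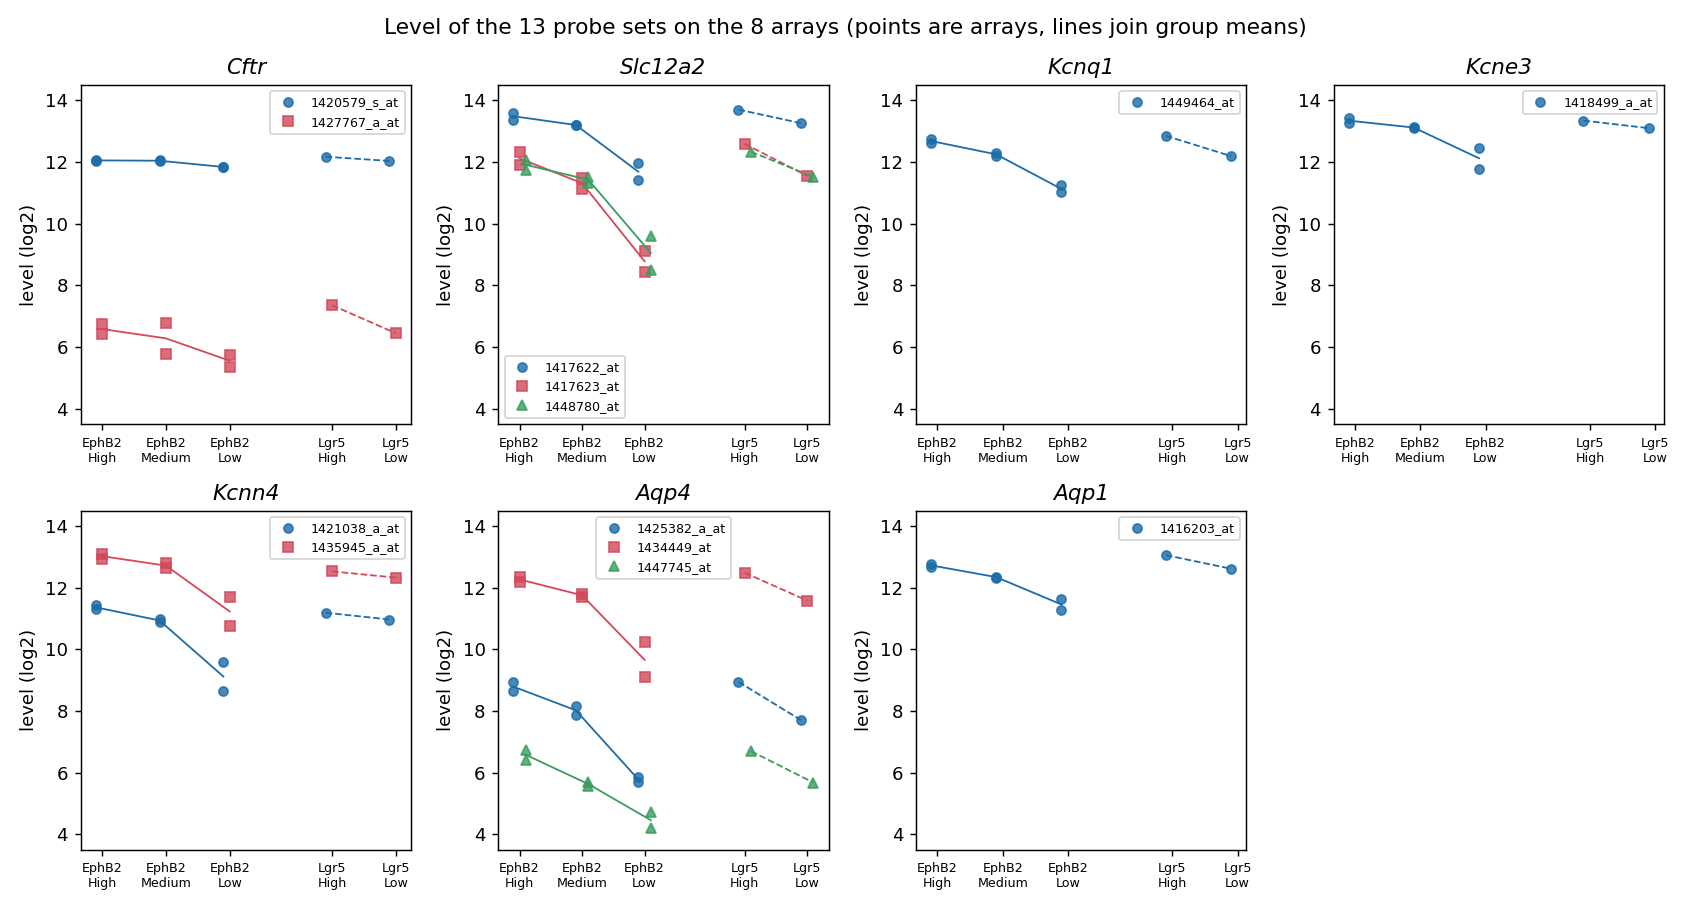
Log2 RMA expression (y axis) of the 13 probe sets in the 8 arrays, with a panel for each of the 7 genes and the groups EphB2 High, Medium, Low, Lgr5 High and Lgr5 Low from left to right. Each point is 1 array, colours and shapes are probe sets, and lines join group means (solid for the EphB2 sort, dashed for the Lgr5 sort). EphB2 Low holds the lowest points of every probe set, and Cftr 1420579_s_at is nearly level, from 11.84 to 12.17.

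The chloride channel gene was the exception, in that neither of its probe sets passed the test. Cftr's brighter probe set, 1420579_s_at, read 12.03 and 12.07 in EphB2 High, 12.03 and 12.05 in EphB2 Medium and 11.84 and 11.84 in EphB2 Low. The 2 EphB2 Low arrays lay below the other 4, and EphB2 High and Medium overlapped. The difference between EphB2 High and Low was 0.21 ± 0.12 (SE, 2 arrays per group), a 1.16-fold change with a 95% interval of 0.95 to 1.42-fold (adjusted p = 0.259). An interval with an upper end of 1.42-fold lies below the fold change measured for each of the 11 called probe sets, but the difference between genes was not tested.

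The other Cftr probe set, 1427767_a_at, lay near the array medians and varied more between replicates. It read 6.42 and 6.74 in EphB2 High, 5.78 and 6.78 in EphB2 Medium and 5.35 and 5.75 in EphB2 Low. Replicate 2 of EphB2 Medium read above both EphB2 High arrays, while replicate 1 of EphB2 Medium was close to EphB2 Low. EphB2 High exceeded EphB2 Low by 1.03 ± 0.35, a 2.04-fold change (adjusted p = 0.0810). Its 95% interval of 1.13 to 3.70-fold was wide and holds the fold changes measured for Kcnq1, Kcne3 and Aqp1, among others. With the hybridization as a block the adjusted p was 0.0193, and with only the EphB2 High and Low arrays in the fit it was 0.0277. The 2 Cftr probe sets therefore differ in the size of their difference, and the part of signal range in this was not tested.

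Slc12a2, which encodes the cotransporter that fills the cell with chloride, had the largest difference among the members and lies at chr18:57878512-57946821. Its probe set 1417623_at read 11.90 and 12.34 in EphB2 High, 11.13 and 11.49 in EphB2 Medium and 9.13 and 8.43 in EphB2 Low. That is a 10.1-fold excess of EphB2 High over EphB2 Low, 3.34 ± 0.29 on the log2 scale (adjusted p = 0.00148). All 3 groups were separate from each other in this probe set, in the order High, Medium, Low, as in every member probe set outside Cftr.

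The brightest Slc12a2 probe set, 1417622_at, read 13.37 and 13.60 in EphB2 High, 13.21 and 13.19 in EphB2 Medium and 11.96 and 11.41 in EphB2 Low, a difference between High and Low of 1.80 ± 0.21 or 3.48-fold (adjusted p = 0.00314). The probe set 1448780_at read 11.74 and 12.08 in EphB2 High, 11.33 and 11.52 in EphB2 Medium and 9.60 and 8.49 in EphB2 Low, a difference of 2.86 ± 0.36 or 7.28-fold (adjusted p = 0.00382). All 3 probe sets rose, while the size ran from 3.48-fold in the brightest to 10.1-fold in 1417623_at. Which of these sizes is nearest to the change in transcript was not tested.

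The potassium channels of the basolateral membrane rose with Slc12a2. Kcnq1, the pore of the cyclic AMP-regulated channel, read 12.60 and 12.76 in EphB2 High, 12.20 and 12.30 in EphB2 Medium and 11.24 and 11.01 in EphB2 Low. It exceeded EphB2 Low by 1.56 ± 0.15, or 2.94-fold (adjusted p = 0.00185), and its replicates lay close together in all 3 groups. Kcne3 encodes the subunit that holds the KCNQ1 channel open, and it read 13.27 and 13.41 in EphB2 High, 13.14 and 13.09 in EphB2 Medium and 12.47 and 11.77 in EphB2 Low. Its difference of 1.22 ± 0.24, or 2.33-fold (adjusted p = 0.0144), lost the call when either EphB2 High array was left out (adjusted p = 0.0569 without replicate 1 and 0.0845 without replicate 2).

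Kcnn4 encodes the calcium-activated channel of intermediate conductance that serves the calcium branch of secretion. Its probe set 1421038_a_at read 11.43 and 11.31 in EphB2 High, 10.98 and 10.90 in EphB2 Medium and 9.58 and 8.66 in EphB2 Low, a difference between High and Low of 2.25 ± 0.30 or 4.75-fold (adjusted p = 0.00427). The brighter probe set 1435945_a_at read 13.10 and 12.95 in EphB2 High, 12.79 and 12.64 in EphB2 Medium and 11.71 and 10.75 in EphB2 Low, a difference of 1.80 ± 0.31 or 3.47-fold (adjusted p = 0.00950). The brighter probe set lost its call when EphB2 High replicate 1 (adjusted p = 0.0535) or replicate 2 (0.0507) was left out, and that of 1421038_a_at was kept in all 6 fits that left out an array. Replicate 2 of EphB2 Low was lower than replicate 1 in both.

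The water channels separated into Aqp4 with large differences and Aqp1 with a smaller one. Aqp4 encodes a water channel of basolateral membranes and lies at chr18:15389394-15410982. Its probe set 1425382_a_at read 8.64 and 8.95 in EphB2 High, 7.87 and 8.18 in EphB2 Medium and 5.87 and 5.69 in EphB2 Low. This was an 8.08-fold excess of EphB2 High over EphB2 Low, 3.01 ± 0.18 (adjusted p = 0.000582), the smallest adjusted p of the 13 probe sets.

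The brightest Aqp4 probe set, 1434449_at, read 12.20 and 12.34 in EphB2 High, 11.80 and 11.71 in EphB2 Medium and 10.23 and 9.09 in EphB2 Low, a difference of 2.61 ± 0.36 or 6.10-fold (adjusted p = 0.00468). The dimmest, 1447745_at, lay around the array medians or below, with 6.43 and 6.73 in EphB2 High, 5.70 and 5.56 in EphB2 Medium and 4.72 and 4.20 in EphB2 Low, a difference of 2.12 ± 0.22 or 4.35-fold (adjusted p = 0.00226). All 3 Aqp4 probe sets kept the order High, Medium, Low without overlap between groups, as did every other member probe set outside Cftr. The share of all probe sets with such an order was not computed. Aqp1, which encodes a constitutive water channel common in endothelium, red blood cells and kidney tubules, read 12.68 and 12.77 in EphB2 High, 12.33 and 12.36 in EphB2 Medium and 11.65 and 11.27 in EphB2 Low. Its difference was 1.27 ± 0.17, or 2.41-fold (adjusted p = 0.00412).

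Several members are also used by other cell types, whose markers were read on the same arrays. For Aqp1, 0 of 3 red blood cell markers were called between EphB2 High and Low, and the summed linear level of 7 endothelial markers was 118 to 126 in EphB2 High, 101 to 110 in EphB2 Medium and 86.3 to 107 in EphB2 Low. Of the endothelial markers, Tek (0.60) and Vwf (1.04) were called higher in EphB2 High, while Pecam1, Cdh5, Kdr, Plvap and Emcn did not pass the test. The endothelial median was between 3.42 and 3.70 in every array, below the first quartile of the arrays (3.94 to 4.21). For Kcnn4, 0 of 6 lymphocyte markers were called, and their summed level was 148 to 170 in EphB2 High, 145 to 179 in EphB2 Medium and 152 to 171 in EphB2 Low. For Aqp4, 0 of 5 markers of enteric glia and neurons were called, with sums of 124 to 126 in EphB2 High, 122 to 127 in EphB2 Medium and 134 to 143 in EphB2 Low. For the same gene, 1 of 3 gastric parietal cell markers (Atp4a, 0.65) was called higher in EphB2 High. RMA assigns a value to every probe set, so no marker read 0.

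Within the epithelium other markers moved with the members. Of 6 tuft cell markers, 3 were called higher in EphB2 High, and their summed level was 1252 to 1897 in EphB2 High, 336 to 735 in EphB2 Medium and 318 to 470 in EphB2 Low. Of 5 Paneth cell markers, 3 were called higher and 1 lower, with sums of 58603 to 61019 in EphB2 High, 50229 to 58642 in EphB2 Medium and 43928 to 46759 in EphB2 Low. The 6 stem cell markers summed to 33612 to 38667 in EphB2 High, 26475 to 26963 in EphB2 Medium and 8287 to 11929 in EphB2 Low. One of them is the member Slc12a2, so this sum is not independent of the members. Summed enterocyte markers ran the other way, with 29310 to 29428 in EphB2 High, 53544 to 56849 in EphB2 Medium and 104350 to 108640 in EphB2 Low. Of the markers of other cells, 3 of 6 goblet cell and 2 of 6 enteroendocrine markers were called lower in EphB2 High, 2 of 6 myeloid markers (Cd68 and Lyz2) were called higher, and 0 of 7 markers of fibroblasts and smooth muscle were called. With the hybridization as a block, Vim and Col1a2 of the fibroblast list were called lower (adjusted p = 0.0106 and 0.0450), and 1 more tuft cell (Trpm5), Paneth cell (Ang4) and enteroendocrine (Gcg) marker each was called higher. The part of any of these in the members' differences was not tested.

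EphB2 Medium cells resembled EphB2 High cells in the members more than they resembled EphB2 Low cells. Against EphB2 Low, EphB2 Medium was called higher in the same 11 probe sets, with the 2 of Cftr again not passing, and the background was 8.54% of probe sets called higher, 6.78% lower and 15.3% in either direction. Both comparisons share their EphB2 Low arrays, so the 2 sets of calls are not independent. The median difference was 1.49 over the members and -0.02 over all probe sets, and 13 of 13 probe sets had no overlap between the 2 groups, beside 56.4% of all. In the brightest probe set per gene, 6 of 7 genes were called, beside 11.4% of genes called higher. The largest differences were in Slc12a2 1417623_at, with 2.53 (adjusted p = 0.00862), and Slc12a2 1448780_at, with 2.38 (adjusted p = 0.0151). Aqp4 1425382_a_at followed with 2.24 (adjusted p = 0.00478).

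The smaller differences of EphB2 Medium over EphB2 Low were 1.12 for Kcnq1 (adjusted p = 0.0114), 1.0 for Kcne3 (adjusted p = 0.0441) and 0.89 for Aqp1 (adjusted p = 0.0230). Those for the brighter probe sets were 1.51 for Slc12a2, 1.49 for Kcnn4 and 2.09 for Aqp4, with adjusted p of 0.0127, 0.0299 and 0.0188. Cftr differed by 0.20 (adjusted p = 0.336) in 1420579_s_at and by 0.73 (adjusted p = 0.237) in 1427767_a_at. Without EphB2 Medium replicate 2, 1 of the 13 was called and 531 of all 45037, and without EphB2 Medium replicate 1, 2 of the 13 and 908 of all, against 6900 with every array. Without EphB2 Low replicate 2, 7 of the 13 and 2084 of all were called. The differences moved little without an EphB2 Medium array in Slc12a2 1417622_at (1.52 and 1.51) and Aqp4 1434449_at (2.13 and 2.05). Over all fits that left out an array, these 2 ran wider, from 1.24 to 1.79 and from 1.52 to 2.66. Cftr 1427767_a_at ran from 0.23 to 1.22, both ends without an EphB2 Medium array. The difference of Aqp4 1425382_a_at lay between 2.09 and 2.40 in the fits that left out an array.

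**Figure D2:**
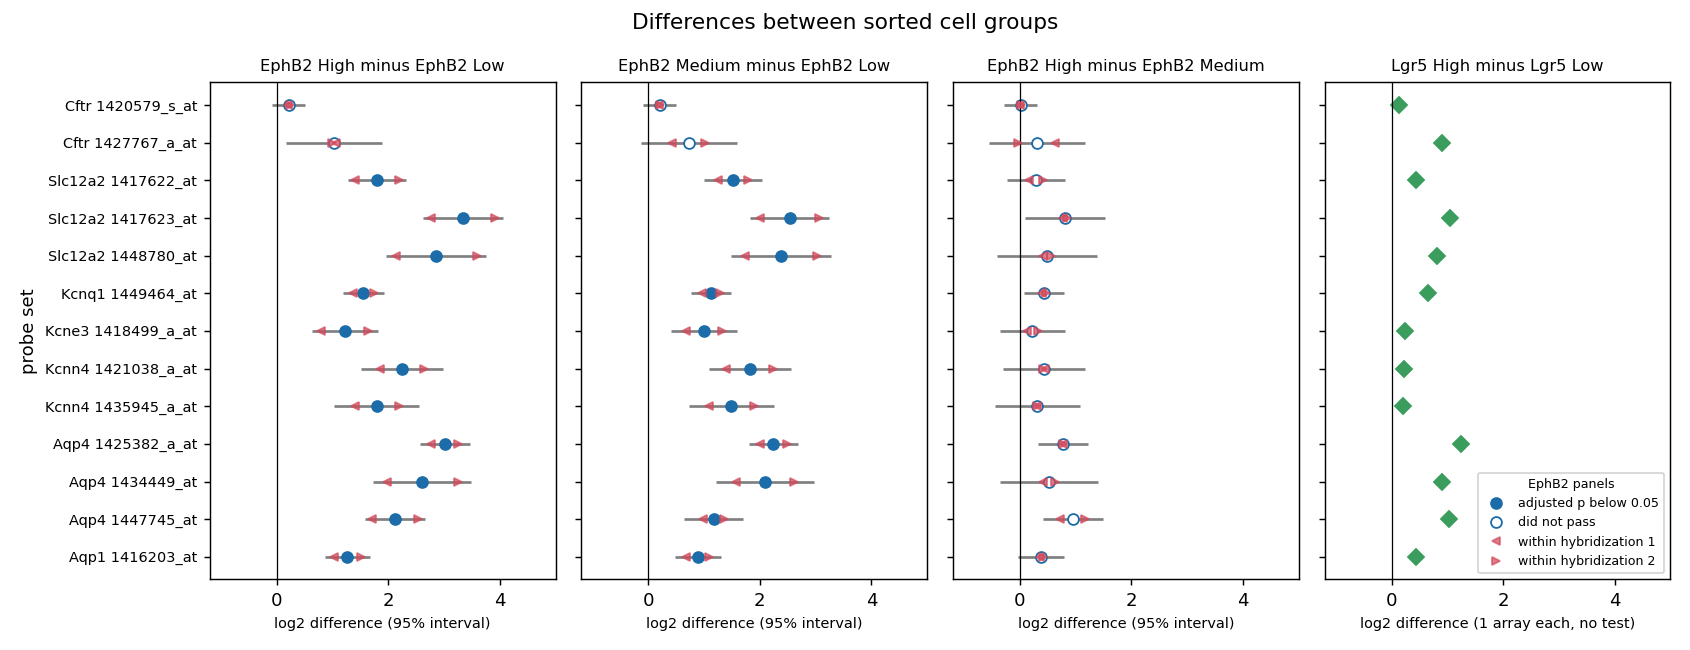
Log2 difference (x axis) of each of the 13 probe sets (rows) in 4 panels, EphB2 High minus Low, EphB2 Medium minus Low, EphB2 High minus Medium, and Lgr5 High minus Low. Circles are limma estimates with 95% intervals, filled where the adjusted p was under 0.05, triangles are the values within hybridization 1 and 2, and diamonds are single differences between 2 arrays with no test. In each of the High minus Low and Medium minus Low panels of the EphB2 sort 11 circles are filled, and 0 are filled in High minus Medium.

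Between EphB2 High and EphB2 Medium the members did not pass the test. All 13 differences were positive, with a median of 0.43 against 0.02 over all probe sets, 0 of 13 were called by limma, and 4 had an unadjusted p under 0.05, as had 4519 of all 45037 probe sets. The arrays did not overlap in 11 probe sets, with the 2 of Cftr overlapping, and 42.2% of all probe sets had no overlap. Few probe sets of any kind were called here, 0.0178% higher, 0.282% lower and 0.3% in either direction. The largest differences were those of Aqp4, 0.95 in 1447745_at (95% interval 0.41 to 1.48, adjusted p = 0.225) and 0.77 in 1425382_a_at (0.33 to 1.21, adjusted p = 0.239), and of Slc12a2, 0.81 in 1417623_at (0.10 to 1.52, adjusted p = 0.432). Kcnq1 differed by 0.43, Kcnn4 by 0.31 and 0.43, Aqp1 by 0.38 and Kcne3 by 0.22. Cftr differed by 0.01 in 1420579_s_at, with an interval of -0.28 to 0.31, and that sign turned when each array was centred on its median or when EphB2 Medium replicate 1 or EphB2 High replicate 2 was left out.

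Most of the span from EphB2 Low to EphB2 High lay between EphB2 Low and EphB2 Medium. That share was 94.9% in Cftr 1420579_s_at, 84.1% in Slc12a2 1417622_at, 81.6% in Kcne3, 72.1% in Kcnq1, 70.0% in Aqp1 and 55.3% in Aqp4 1447745_at, the lowest. The share of Cftr 1420579_s_at cannot be read, since its High minus Low difference did not pass the test (95% interval -0.08 to 0.51). The median share over the 6957 probe sets called higher in EphB2 High was 72.9%, so the members' shares lie on both sides of it. EphB2 Medium lay above the midpoint of EphB2 High and EphB2 Low in all 13 probe sets. Tested as Medium minus the mean of High and Low, a contrast chosen after seeing the data, limma called 0 of 45037 probe sets (4042 at an unadjusted p under 0.05) and 0 of the 13 (7 at an unadjusted p under 0.05).

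The hybridizations gave the same direction with different sizes. EphB2 High exceeded EphB2 Low within each hybridization in all 13 probe sets, and EphB2 Medium exceeded EphB2 Low likewise. In 12 of 13 the High-Low difference was larger in the hybridization of replicate 2, Cftr 1427767_a_at being the exception. In 10 of 13 probe sets EphB2 Low had the largest SD of the 3 groups, up to 0.80 in Aqp4 1434449_at. Within the hybridizations, EphB2 High minus Medium for Cftr 1427767_a_at was 0.64 and -0.03. Shares over all probe sets were not computed for the counts in this paragraph, which may thus hold across the arrays.

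Sorting by the Lgr5 reporter gave the same direction in every member. All 13 probe sets were higher in the Lgr5 High array than in the Lgr5 Low array, with a median difference of 0.66 against -0.05 over all probe sets. With 1 array per group there is no test. A difference of more than 2-fold was seen in 3 probe sets, Aqp4 1425382_a_at, Slc12a2 1417623_at and Aqp4 1447745_at, and 2.3% of all probe sets were past 2-fold higher (4.67% lower and 6.97% in either direction).

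Among the transport proteins, Slc12a2 1417623_at read 12.59 in Lgr5 High and 11.55 in Lgr5 Low, a difference of 1.04, and the other Slc12a2 probe sets differed by 0.44 and 0.81. Cftr 1420579_s_at read 12.17 in Lgr5 High and 12.03 in Lgr5 Low (0.14), and Cftr 1427767_a_at read 7.35 in Lgr5 High and 6.44 in Lgr5 Low (0.91). Kcnq1 read 12.85 in Lgr5 High and 12.19 in Lgr5 Low (0.66), the largest difference of the potassium channel genes. Kcne3 read 13.34 in Lgr5 High and 13.10 in Lgr5 Low (0.24), and Kcnn4 differed by 0.22 in 1421038_a_at and 0.20 in 1435945_a_at.

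The largest difference of this sort was in a water channel gene. Aqp4 1425382_a_at read 8.95 in Lgr5 High and 7.71 in Lgr5 Low (1.24), and the other Aqp4 probe sets differed by 1.02 in 1447745_at and 0.90 in 1434449_at. Aqp1 read 13.06 in Lgr5 High and 12.62 in Lgr5 Low (0.44). The difference between the Lgr5 arrays was larger than that between EphB2 High and EphB2 Medium in 11 of 13 probe sets, the exceptions being those of Kcnn4. In Kcne3 the 2 were nearly equal (0.24 and 0.22). The Lgr5 differences rest on 1 array per group, and the share of all probe sets with a larger Lgr5 difference was not computed. The count may thus not be particular to the members.

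The levels of the 2 sorts can be set side by side only as a description, since the Lgr5 arrays were hybridized apart and no source says that RMA was run on all 8 at once. The Lgr5 High array lay above both EphB2 High arrays in 9 of 13 probe sets, between them in 2 and below both in 2, which were the 2 of Kcnn4. The Lgr5 Low array lay above both EphB2 Low arrays in all 13, and above, between and below the EphB2 Medium arrays in 3, 6 and 4. In the members, Lgr5 Low cells thus read closer to EphB2 Medium than to EphB2 Low. How often these positions occur over all probe sets was not computed, so they may not be particular to the members. The tuft cell markers, called higher in EphB2 High, summed to 630 in Lgr5 High and 1360 in Lgr5 Low, so they ran against the members in this sort, as did the Paneth cell markers, with 54735 in Lgr5 High and 77782 in Lgr5 Low. The stem cell markers, with the member Slc12a2 among them, summed to 44081 in Lgr5 High and 29219 in Lgr5 Low. The endothelial markers summed to 141 in Lgr5 High and 132 in Lgr5 Low. The enterocyte markers summed to 20790 in Lgr5 High and 68217 in Lgr5 Low, with 6 of 7 past 2-fold lower, and past 2-fold lower were also 5 of 6 enteroendocrine, 3 of 6 goblet cell and 3 of 6 tuft cell markers. The part of these in the members' differences was not tested.

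**Figure D3:**
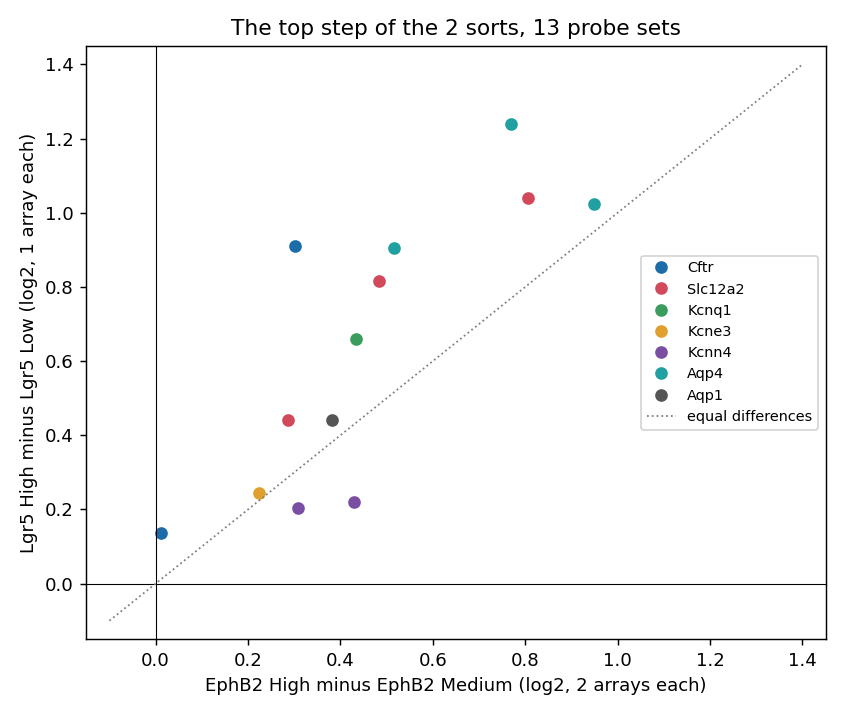
The EphB2 High minus EphB2 Medium difference (x axis, log2, means of 2 arrays each) and the Lgr5 High minus Lgr5 Low difference (y axis, log2, 1 array each) of the 13 probe sets, 1 point each, coloured by gene, with a dotted line where both are equal. All points lie above 0 on both axes and 11 lie above the line, with only the 2 of Kcnn4 (0.22 and 0.20 on the y axis) below it. The share of all probe sets above the line was not computed.

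The genes with the most similar profile over the 8 arrays were found from the mean absolute difference between profiles centred on their own means, among the brightest probe set of each other gene. For Kcnq1 the nearest was Clic6, with a mean absolute difference of 0.04, then Prps2 (0.05) and Pes1 (0.06). For Slc12a2 they were Grwd1, Snhg5 and Trim59 (0.08 each), and for Kcne3 Trmt112 (0.05), Birc5 (0.06) and Myb (0.06). Kcnn4 was nearest to Rfc4 (0.04), Fbxo5 (0.07) and Ptp4a3 (0.08), and Aqp4 to Hirip3 (0.08), Slc16a12 (0.10) and Cenph (0.10). Aqp1 was nearest to Itgb3bp (0.05), Jpx (0.06) and Apex1 (0.06), and Cftr, which spanned only 0.34 over the arrays, to Ctdsp2 (0.02), Fbxl4 (0.03) and Psmb3 (0.03). The 7 members shared none of these neighbours, but only 3 genes were kept per member and the profiles were not scaled to a common range. The lack of overlap therefore says little about how alike the members are.

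Other genes of ion and water transport, taken from 7 lists, mostly moved the other way or did not pass the test between EphB2 High and Low. By the brightest probe set, 19.6% of all genes were called higher and 13.2% lower. The sodium pump, which powers both secretion and absorption, was the nearest to the members: 2 of 3 measured genes rose and 0 fell, with Atp1b3 at 1.12 ± 0.13 (adjusted p = 0.00282) and the regulator Fxyd3 at 1.19 ± 0.24 (adjusted p = 0.0152). Atp1b1 differed by -0.24 and did not pass the test.

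Of 19 genes listed as other chloride and potassium channels and cotransporters, 2 rose and 6 fell. Those that fell include Clca4a and Clca1, the latter also in the goblet cell list, and whether their products are channels was not examined. The potassium channels Kcnma1 (1.56) and Kcnk1 (1.09) rose, with adjusted p of 0.00574 and 0.00882. Kcnj13 fell by 2.76 (adjusted p = 0.000871), Kcnk5 by 1.64 (adjusted p = 0.00190) and the chloride channel Clcn2 by 1.49 (adjusted p = 0.00211). In EphB2 High, Kcnj13 read 4.55 and 4.89, below the array medians, so the size of its fall is uncertain. The calcium-activated chloride channel Ano1 differed by -0.85 and did not pass the test (adjusted p = 0.0613, and 0.0174 with the hybridization as a block).

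Genes of anion exchange, bicarbonate and sodium absorption fell in 7 of 15 and rose in 1. Slc26a6 and Slc26a3, exchangers of the apical membrane, fell by 3.17 (adjusted p = 0.000747) and 1.93 (adjusted p = 0.00219), and the sodium-hydrogen exchanger Slc9a2 fell by 1.62 (adjusted p = 0.00184). Car12, a carbonic anhydrase at the cell surface, rose by 2.09 ± 0.20 (adjusted p = 0.00183). Of the 9 other aquaporins, 4 fell and 0 rose, with Aqp8 falling by 2.22 (adjusted p = 0.00256), Aqp7 by 2.60 (adjusted p = 0.00375) and Aqp3 by 1.70 (adjusted p = 0.00392). In EphB2 High, Aqp8 (3.66 and 4.02) and Aqp7 (4.22 and 3.62) read near the first quartile of the arrays, so the sizes of these falls are uncertain. Aqp4 and Aqp1 thus differed in direction from every other aquaporin that passed the test.

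Receptors that start or restrain secretion rose in 1 and fell in 3 of 15, or 2 and 5 with the hybridization as a block. The serotonin receptor Htr4 rose by 3.74 ± 0.68 (adjusted p = 0.0111). It read 6.25 and 4.09 in EphB2 Low, the second near the first quartile of the arrays, so the size of its rise is uncertain. The nucleotide receptors P2ry2 and P2ry1 fell by 1.54 (adjusted p = 0.00444) and 0.70 (adjusted p = 0.0140), and the peptide YY receptor Npy1r fell by 0.95 (adjusted p = 0.0109). Npy1r read between 2.67 and 3.89 on the EphB2 arrays, below the first quartile of the arrays, so the size of its fall cannot be read. Downstream of the receptors, 3 of 20 signalling genes rose and 3 fell. Those that rose were Abcc4, an exporter of cyclic AMP (2.32, adjusted p = 0.000528), Prkacb, a catalytic subunit of protein kinase A (2.53, adjusted p = 0.00375), and the adenylyl cyclase Adcy6 (0.47, adjusted p = 0.0425). Those that fell were Adcy9 by 1.25 (adjusted p = 0.00218), Prkg2 by 1.44 (adjusted p = 0.00246) and Gna11 by 1.10 (adjusted p = 0.00271).

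Of 17 genes for scaffolds, trafficking and kinases of the transporters, 10 fell and 3 rose. The 3 that rose, Wnk4 (1.32, adjusted p = 0.00449), Stk39 (0.82, adjusted p = 0.00708) and Wnk1 (0.64, adjusted p = 0.0134), encode kinases of the cascade known to phosphorylate and activate NKCC1. Oxsr1, another kinase of that cascade, did not pass the test (adjusted p = 0.997). The apical scaffold genes Pdzk1 and Pdzd3 fell by 3.96 (adjusted p = 0.000375) and 2.10 (adjusted p = 0.000727), and the motor gene Myo5b fell by 1.50 (adjusted p = 0.00273). The median differences of the lists were 1.12 for the sodium pump, -0.27 for the channels, -1.22 for the exchangers and absorption, -0.90 for the other aquaporins, -0.21 for the receptors, -0.02 for signalling and -0.74 for the scaffolds and kinases, against 0.01 over 18193 genes. The lists were chosen by function, and their differences from the members were not tested.

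**Figure D4:**
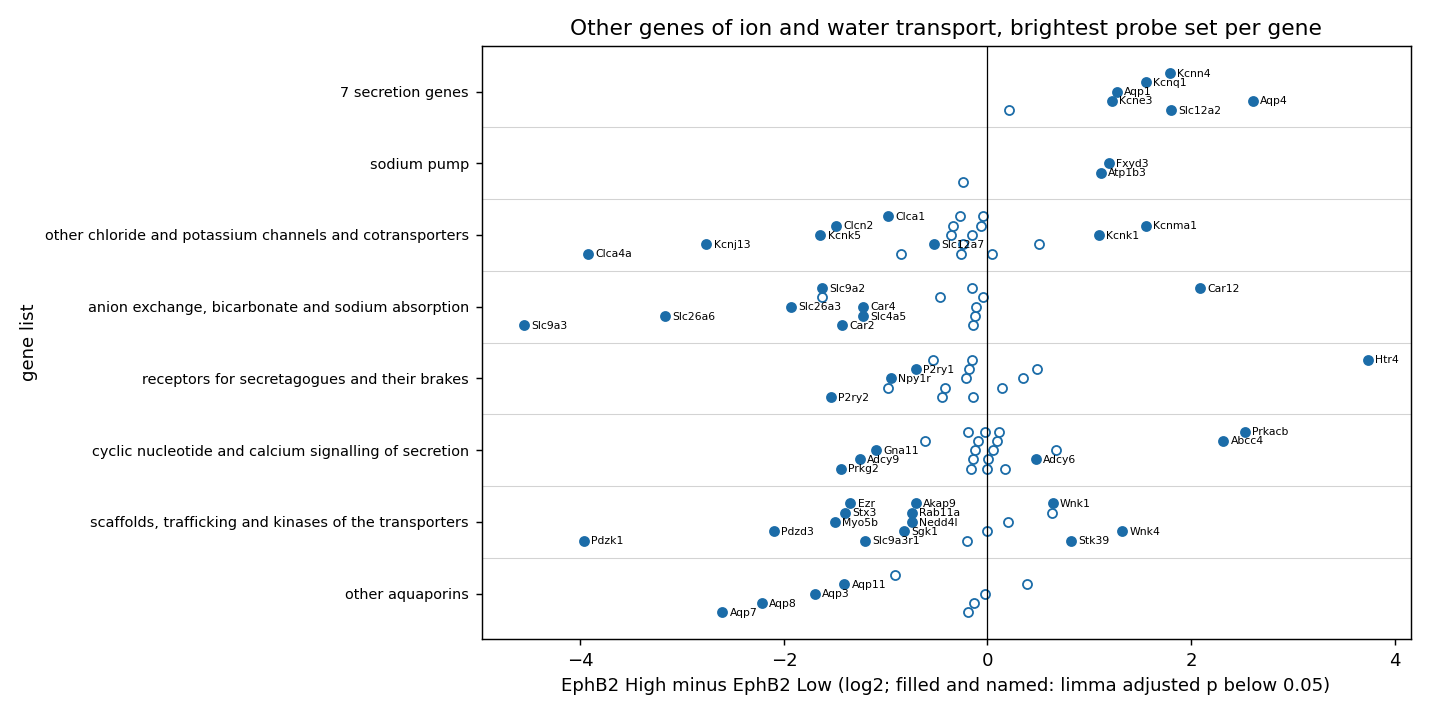
EphB2 High minus EphB2 Low difference (x axis, log2) of each of the 7 members (top row) and of each gene of the 7 transport lists, 1 point per gene from its brightest probe set. Filled, named points passed the test and open points did not. Among the members 6 are filled above 0 and Cftr is open at 0.21, while 4 of 9 other aquaporins and 7 of 15 exchanger and absorption genes are filled below 0.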

How the data were processed

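Expression was measured on Affymetrix arrays of 8 samples. The authors deposited log2 values made with RMA (version unstated), per the submitters' processing notes. RMA forces near-equal distributions, so total RNA per cell cannot be read. Probe sets were named from the platform annotation. From 45101 rows, 64 controls were left out. limma 3.58.1 in R 4.3.3 (lmFit, contrasts.fit, eBayes) was fitted to the 6 EphB2 arrays, with no term beside the group and 3 residual degrees of freedom, p-values were adjusted over 45037 probe sets by Benjamini-Hochberg, and the threshold was 0.05. The code was tested on simulated data. With 2 arrays per group the number of arrays limits the precision. The labels tie replicate numbers to hybridizations, and deviations of same-numbered arrays correlated at 0.18 (High and Low), 0.26 (Medium and Low) and 0.47 (High and Medium), so the block was tried as an alternative, with normalization, a filter on dim probe sets, an intensity trend, fewer arrays and the brightest probe set per gene. Every member probe set was named, and from each list up to 3 genes per direction with the smallest adjusted p. Atp1b1, Ano1, Oxsr1, Clca1 and Clca4a were named outside that rule, after their values were seen. The members and lists were chosen with earlier results of these data known. Promoter sequences are from RefSeq (GRCm38.p6).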

Additional observations from a re-analysis of the deposited data

How the results depend on the processing

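Of the members' log2 differences under all alternatives, 155 kept direction and side of the threshold in EphB2 High minus Low, 4 gained a call and 4 lost it. In Medium minus Low 131 kept both and 32 lost the call, and in High minus Medium 159 kept both and 4 reversed. In the Lgr5 sort 26 of 26 kept their direction. Leaving out either array of the EphB2 group not compared gave the same values as fitting only the 2 groups compared. The EphB2 tallies and the numbers of fits that left out an array therefore count that fit more than once. With the replicate block, Cftr 1427767_a_at was called in High minus Low (adjusted p = 0.0193), as it also was without the EphB2 Medium arrays (adjusted p = 0.0277), and the pairing changed no other call of a member. The reversed values, all of Cftr in High minus Medium, were -0.013 for 1420579_s_at with each array centred on its median and, with an array left out, -0.0017 and -0.0094 for 1420579_s_at (range -0.0094 to 0.031) and -0.19 for 1427767_a_at (range -0.19 to 0.80); the cause was not tested. Over all probe sets, High minus Low called 12335, or 6792 genes with the brightest probe set per gene (fewer features tested), and 5898 to 10728 with an array left out (5898 and 7617 without replicate 2 or 1 of EphB2 High, 7727 without replicate 2 of EphB2 Low). Of the members 11 were called, 6 of 7 genes by the brightest probe set, and 9 to 12 with an array left out. Medium minus Low called 6900, or 4489 by the brightest probe set, 4191 with only the 4 arrays compared (fewer samples) and 531 to 6240 with an array left out. Of the members 11 were called, 6 by the brightest probe set and 1 to 11 with an array left out. High minus Medium called 135, or 274 with the filter on dim probe sets, 470 with the intensity trend, 248 by the brightest probe set, 81 with the replicate block, 0 with only the arrays compared and 0 with any array left out, and 0 members throughout. A lone array left in a group was assumed to vary like the other groups. Signal near background limits Cftr 1427767_a_at and Aqp4 1447745_at, and Npy1r, Aqp7, Aqp8, Htr4 and Kcnj13 among the other genes. Detection calls were not used here.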
